A study of Mus musculus with 4 samples.

Results

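The AP-1 Fos and Jun family was followed through all 4 arrays of a study of mouse embryonic fibroblasts, which are connective tissue cells cultured from embryos. The members are Fos, Fosb, Fosl1, Fosl2, Jun, Junb, Jund and Atf3, and every probe set annotated with exactly 1 of these 8 symbols was taken. Probe sets are clusters of short oligonucleotides designed against a transcript, and some match several genes. The 8 genes, of 18193 with a symbol of their own on the array, had 12 probe sets of the 45037 that are not controls, with 2 each for Jun, Fosl1, Fosl2 and Jund and 1 each for the others. The members share a gene family, but the family was selected on earlier results of these arrays, among them normalized signals that differed between lines numbered 2 and lines numbered 1, so values by line number are given as a description with no test.

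The study set RBP2-/- cells against wild type cells, each as 2 independent lines of primary fibroblasts at passage 3, with 1 Affymetrix array per line. RBP2 is the retinoblastoma binding protein whose gene is now called Kdm5a, a demethylase that acts on histone H3 at lysine 4. Lines are named here by the number in the sample titles, so that RBP2-/- line 2 and RBP2-/- line 1 stand beside wild type line 2 and wild type line 1. The labels give no strain, sex, litter, culture day, serum condition or harvest time for any line, and no description of the deleted part of the gene. The analysis names in the labels end in the serial numbers 8 for RBP2-/- line 2, 7 for wild type line 2, 6 for RBP2-/- line 1 and 5 for wild type line 1. Line number and serial order therefore cannot be told apart.

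AP-1 is a pair of leucine zipper proteins that bind DNA together, most often 1 of the Fos group with 1 of the Jun group. Fos, Fosb, Jun, Junb and Atf3 are early-response genes, whose transcripts appear within minutes of serum, growth factors or stress and are lost again quickly. Fosl1 (Fra-1) and Fosl2 (Fra-2) are late members, induced more slowly, in part by earlier AP-1 itself, and held longer in growing fibroblasts. Jund is present in resting cells and varies less with growth signals. In fibroblasts the family is best known for the response to serum and for control of proliferation and matrix proteases.

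The stretches of DNA just upstream of the genes are shown for the early members that differed most between lines and for Fosl2 as a late member, because the text below sets early against late genes. They come from windows of 250 bases before 1 transcript start per gene, from RefSeq on GRCm38.p6, and 7 of the 8 members matched an entry. For Fosb 73 bases of the window lie inside the annotated gene, so only the 177 upstream of it are printed, although the motif search covered all 250. Capitals mark exact matches, on either strand, to the AP-1 site TGANTCA, the cAMP response element TGACGTCA, its variant TGACATCA, the shorter core TGACGT (which is contained in TGACGTCA) and the TATA box TATAAA.
Fos, chr12:85473640-85473889, plus strand: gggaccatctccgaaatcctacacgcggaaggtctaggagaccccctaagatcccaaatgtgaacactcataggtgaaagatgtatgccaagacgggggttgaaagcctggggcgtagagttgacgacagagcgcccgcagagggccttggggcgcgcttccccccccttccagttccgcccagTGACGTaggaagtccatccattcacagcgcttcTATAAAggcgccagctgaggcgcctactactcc
Fosb, chr7:19310119-19310295, minus strand: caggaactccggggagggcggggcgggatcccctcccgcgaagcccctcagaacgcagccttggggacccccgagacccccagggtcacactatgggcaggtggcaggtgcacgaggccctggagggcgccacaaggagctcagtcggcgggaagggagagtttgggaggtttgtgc
Jun, chr4:95052223-95052472, minus strand: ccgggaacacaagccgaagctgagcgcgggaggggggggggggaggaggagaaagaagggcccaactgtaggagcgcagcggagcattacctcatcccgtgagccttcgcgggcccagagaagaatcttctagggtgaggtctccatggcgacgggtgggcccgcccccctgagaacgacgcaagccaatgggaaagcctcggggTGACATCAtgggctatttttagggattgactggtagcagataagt
Fosl2, chr5:32136222-32136471, plus strand: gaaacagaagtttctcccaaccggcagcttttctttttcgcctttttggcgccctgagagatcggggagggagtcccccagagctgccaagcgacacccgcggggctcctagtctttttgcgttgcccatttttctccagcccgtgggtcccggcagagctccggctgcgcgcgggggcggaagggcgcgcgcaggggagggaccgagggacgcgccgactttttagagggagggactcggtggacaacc

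The core was found in the windows of Fos and Atf3, at -66 to -61 and -8 to -3 from the start, and in 6.47% of the 32841 upstream windows of all genes. Jun held the variant TGACATCA at -45 to -38, which 2.93% of windows hold. The TATA box was found in Fos at -33 to -28 and in 12.4% of windows. None of the 7 member windows held TGANTCA or TGACGTCA, which 6.75% and 1.55% of windows hold. These are matches of letters only, and Fosb, Junb, Fosl2 and Jund had none of the 5 motifs in this window.

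Deposited values are linear signal intensities on arrays of unequal brightness. Their mean, trimmed by 2% at both ends, was 152 and 77.9 in RBP2-/- lines 2 and 1 and 101 and 61.7 in wild type lines 2 and 1, so the arrays numbered 2 were brighter by 1.94 times in RBP2-/- and 1.63 times in wild type. Signals were therefore quantile normalized and are given as log2(signal + 9), which understates the change of dim probe sets. The upper 60% of probe sets by mean over the 4 arrays were kept, which were 27022 and held all 12 of the family, and the threshold for a genotype difference was an adjusted p of 0.05. Wild type line 1 stood apart from the others, with correlations across kept probe sets of 0.927 to 0.928, against up to 0.965 between other arrays. The Actb control gave a 3' over 5' signal, which is higher in degraded RNA, of 1.14 and 1.10 in RBP2-/- lines 2 and 1 and 1.09 and 1.02 in wild type lines 2 and 1. On its brightest probe set, the targeted gene Kdm5a had 6.49 and 6.40 in RBP2-/- lines 2 and 1 and 7.65 and 6.72 in wild type lines 2 and 1. The log2 fold change was -0.74 (standard error 0.34) and did not pass the threshold (limma adjusted p = 1.00). The other 4 kept Kdm5a probe sets had -1.24, -0.25, 0.24 and 0.15, none of which passed, and a probe set outside the deleted part would not check the labels. Of the 11 fibroblast markers listed, all 11 were among the brighter 60% of probe sets, with a summed normalized signal of 44995 to 48628 in RBP2-/- and 43237 to 48598 in wild type. Markers of leukocytes, epithelium, endothelium, neural cells, skeletal muscle and erythroid cells were also looked at, and the highest sum of such a list on any array was 1304, for skeletal muscle.

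Fos, the founding early member, had the widest spread of the family between lines. Its deposited signal was 4027 and 201.3 in RBP2-/- lines 2 and 1 and 2152 and 150 in wild type lines 2 and 1. The lines numbered 2 were thus high in both genotypes and the lines numbered 1 low. The ratio was 20.0 in RBP2-/- and 14.3 in wild type, against 1.94 and 1.63 for the trimmed mean of the arrays. The part of array brightness in these values was not tested. After normalization Fos had a log2 signal of 11.49 and 8.04 in RBP2-/- lines 2 and 1 and 11.02 and 7.99 in wild type lines 2 and 1. The genotypes overlapped, and the line numbers lay 3.24 apart, or 9.43-fold. Of 13097 genes with a kept probe set, Fos ranked 1 by this difference.

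Fosb, which shares the bZIP domain of Fos and has a shorter splice form that lacks much of its activating region, ranked 2. The next gene, Mfap4, was almost level, at 2.438 against 2.444 for Fosb. The deposited signal of Fosb was 578 and 41 in RBP2-/- lines 2 and 1 and 220.1 and 26.8 in wild type lines 2 and 1. The normalized log2 signal of Fosb was 8.57 and 6.01 in RBP2-/- lines 2 and 1, against 7.80 and 5.47 in wild type lines 2 and 1. As for Fos, both lines numbered 2 lay above both lines numbered 1, by 2.56 in RBP2-/- and 2.33 in wild type. Both Fosb values of RBP2-/- also lay above the wild type value of the same number, as did those of Fos and Junb. The genotypes overlapped for all of these genes, and the labels do not state that numbers pair lines.

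Jun, the main partner of the Fos proteins, had 2 probe sets that differed in size of response. The brighter had a deposited signal of 1217 and 284.2 in RBP2-/- lines 2 and 1 and 861.7 and 174 in wild type lines 2 and 1. On the normalized log2 scale this was 9.64 and 8.50 in RBP2-/- lines 2 and 1 and 9.73 and 8.20 in wild type lines 2 and 1, a line difference of 1.15 and 1.53. On the other Jun probe set the line difference was 0.86 in wild type but 0.028 in RBP2-/-, where the normalized values were 8.60 and 8.57. A line difference for Jun in RBP2-/- thus rests on 1 of its probe sets.

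Junb, a Jun protein that activates less strongly and can restrain Jun, showed a smaller difference of the same order in both genotypes. Its normalized log2 signal was 8.76 and 8.33 in RBP2-/- lines 2 and 1 and 8.57 and 8.11 in wild type lines 2 and 1, or 0.43 and 0.46 between lines. Atf3, a stress-induced factor of the ATF group that pairs with Jun proteins, did not follow. It had 6.95 and 7.03 in RBP2-/- lines 2 and 1 and 7.49 and 6.57 in wild type lines 2 and 1, so the line difference of 0.91 in wild type had no counterpart in RBP2-/-, at -0.074.

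**Figure D1:**
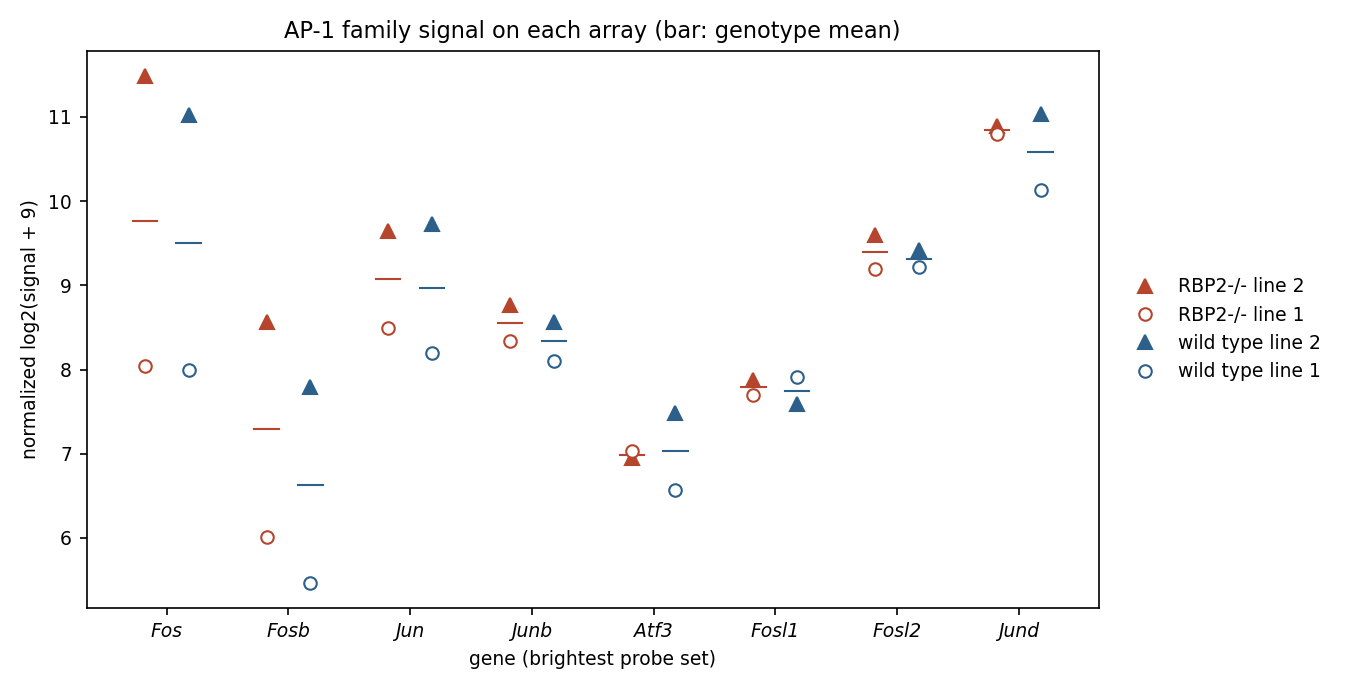
Normalized log2(signal + 9) of the brightest probe set of each of the 8 members on the 4 arrays, with filled triangles for lines numbered 2, open circles for lines numbered 1, and a bar at each genotype mean (n = 2). For Fos, Fosb and Jun the triangles lie 1.15 to 3.44 above the circles, while the genotype means of these genes differ by 0.11 to 0.66.

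The late members showed little of this. Fosl1 had a normalized log2 signal of 7.87 and 7.70 in RBP2-/- lines 2 and 1 and 7.59 and 7.91 in wild type lines 2 and 1 on its brighter probe set. The lines numbered 2 were higher in RBP2-/- by 0.17 and lower in wild type, at -0.32, and the 2 numbers overlapped. The dimmer Fosl1 probe set had line differences of -0.29 in RBP2-/- and -0.19 in wild type. Fosl2 had 9.60 and 9.19 in RBP2-/- lines 2 and 1 and 9.42 and 9.21 in wild type lines 2 and 1 on its brighter probe set. There both lines numbered 2 lay above both lines numbered 1, by 0.41 and 0.21, but the dimmer Fosl2 probe set had -0.22 in RBP2-/- and 0.015 in wild type.

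Jund, the member least tied to growth signals, had 10.89 and 10.79 in RBP2-/- lines 2 and 1 and 11.04 and 10.13 in wild type lines 2 and 1 on its brighter probe set. The difference between lines was 0.097 in RBP2-/- and 0.91 in wild type, and so came mostly from the low value of wild type line 1, the array that stood apart. The dim Jund probe set, with deposited signals from 11.3 to 34.3, had 0.39 in RBP2-/- and -0.054 in wild type.

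**Figure D2:**
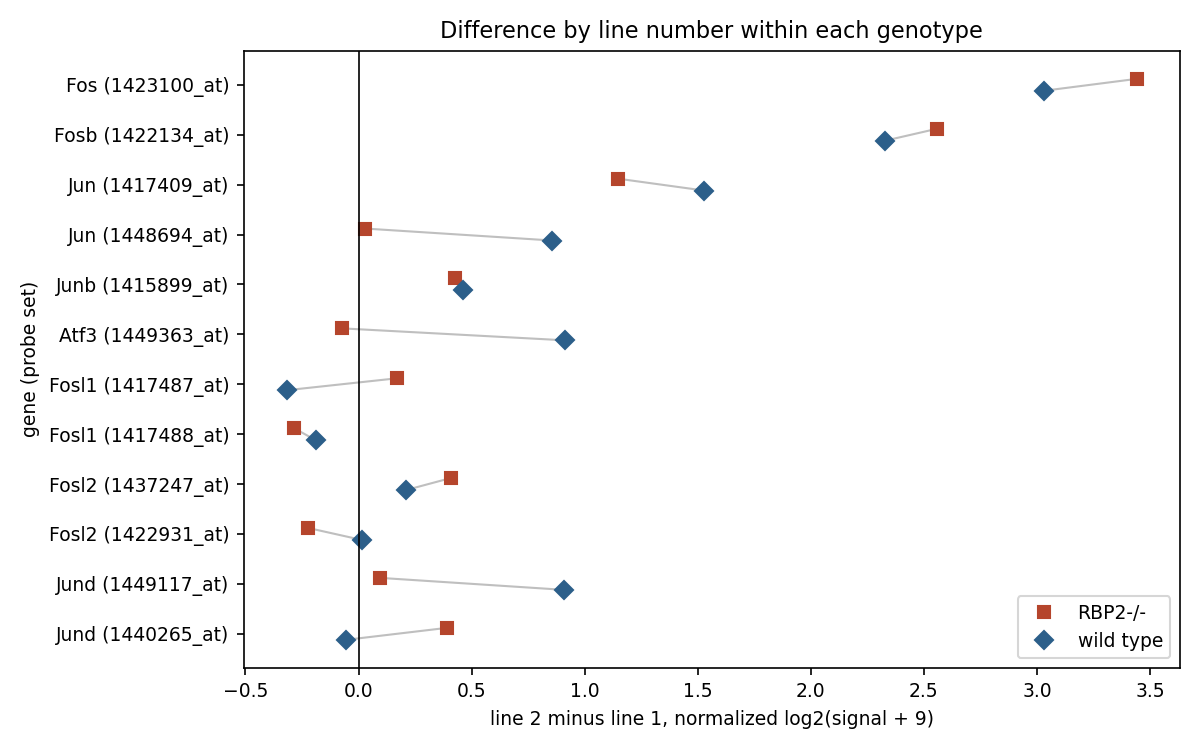
Line 2 minus line 1 in normalized log2(signal + 9) for the 12 probe sets, with squares for RBP2-/- and diamonds for wild type (1 pair of arrays each). Fos and Fosb lie between 2.33 and 3.44 in both genotypes, and the 4 probe sets of Fosl1 and Fosl2 lie between -0.32 and 0.41.

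Over the family, both lines numbered 2 lay above both lines numbered 1 for 7 of 12 probe sets, below for 0, and overlapped for 5. Over all 27022 kept probe sets the share above was 20.2% and the share below 20.7%. A difference of at least 1 on the log2 scale was reached by 3 of the 12, those of Fos, Fosb and the brighter one of Jun, and by 2.01% of all kept probe sets. Since this comparison was in view when the family was chosen, no test is attached to these counts. Without scaling between arrays all 12 lay above, as the median over kept probe sets then itself differed by 0.73 between numbers. Relative to that shift Fos had 3.29, Fosb 2.39, the brighter Jun probe set 1.43, and the brighter and dimmer Fosl1 probe sets 0.053 and -0.22. With arrays centred on their medians the brighter Fosl1 and the dimmer Fosl2 probe sets turned to 0.25 and 0.16. Relative to the median shift still left over kept probe sets they had 0.053 and -0.031, and the dim Jund probe set had -0.056. Their signs thus depended on the scaling or on that shift, and those of Fos, Fosb, Jun and Junb did not.

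The early and late members were also set against each other within each array, which removes most of the effect of overall brightness. Each gene was centred on its mean over the 4 arrays and averaged within its class. The mean of the 5 early members was 0.87 and -0.63 in RBP2-/- lines 2 and 1 and 0.71 and -0.95 in wild type lines 2 and 1. The mean of the 2 late members was 0.17 and -0.11 in RBP2-/- lines 2 and 1 and -0.057 and -0.0028 in wild type lines 2 and 1. Early minus late thus differed between line 2 and line 1 by 1.21 in RBP2-/- and 1.71 in wild type, a mean of 1.46 on the log2 scale. By genotype the same quantity differed by 0.18, RBP2-/- minus wild type. Leaving out each array in turn, the line difference of early minus late lay between 1.26 and 1.65. These are averages over chosen genes of unequal change, and Fos and Fosb supply most of them. On brightest probe sets Junb and Atf3 had line differences of 0.44 and 0.42, below 0.50 for Jund and above 0.31 for Fosl2. By this difference Jund ranked 1316, Junb 1602, Atf3 1750 and Fosl2 2574 of 13097 genes. The contrast of early and late members thus rests mostly on Fos, Fosb and Jun.

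**Figure D3:**
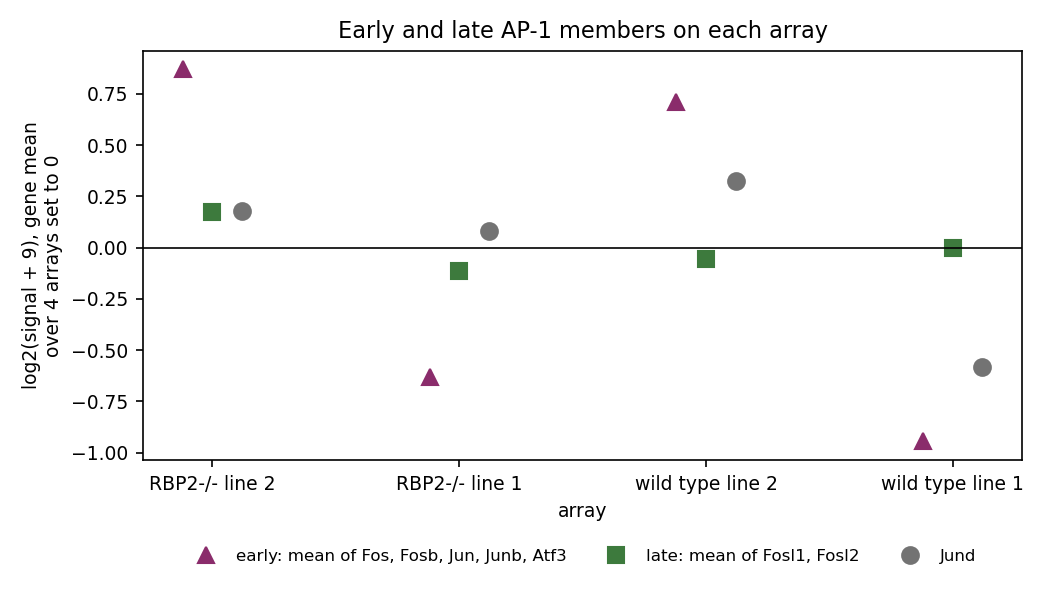
Mean log2(signal + 9) of the 5 early members (triangles), the 2 late members (squares) and Jund (circles) on each array, with each gene's mean over the 4 arrays set to 0. The early mean is 0.87 and 0.71 on the arrays of lines numbered 2 and -0.63 and -0.95 on those of lines numbered 1, while the late mean stays between -0.11 and 0.17.

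By genotype, no member passed the test. RBP2-/- and wild type were compared for all 27022 kept probe sets with limma, and 0 of the 12 AP-1 probe sets passed an adjusted p of 0.05, and 0 also when the variance prior was not allowed to depend on the mean. Over all kept probe sets 1 passed, or 0.0037%. At an unadjusted p under 0.05 there were 0 of the 12, against 2.98% of all kept probe sets. Estimates lay above 0 for 9 of the 12 and below for 3. Of all 13097 kept genes, by brightest probe set, 6357 had an estimate above 0 and 6740 below. With 2 lines against 2 an exact two-sided permutation test cannot give a p below 0.333. The labels do not say how the lines of a genotype differ. The limma tests set each genotype difference against the spread between these lines, drawn toward that of probe sets of similar mean signal.

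The intervals show how little this comparison can say about the early genes, since the differences by line number stay in its spread. Fos averaged 9.76 ± 2.43 in RBP2-/- and 9.51 ± 2.14 in wild type (SD, n = 2 each), a log2 fold change of 0.26 (standard error 1.13, 95% interval -2.32 to 2.84, limma adjusted p = 1.00). Fosb averaged 7.29 ± 1.81 in RBP2-/- and 6.63 ± 1.65 in wild type (SD, n = 2 each), a log2 fold change of 0.66 with an interval from -1.35 to 2.66. The median standard error over all kept probe sets was 0.33, so the Fos value was known far less well than that of a typical probe set. Leaving out 1 line unbalanced the line numbers, and the Fos estimate was then between -1.49, without RBP2-/- line 2, and 1.95, without RBP2-/- line 1.

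The other members had narrower intervals, all of which held 0. On the brighter or only probe set, the log2 fold change of RBP2-/- over wild type was 0.11 for Jun with an interval from -1.05 to 1.26, and 0.21 for Junb with one from -0.38 to 0.80. Atf3 had -0.042 (interval -0.81 to 0.73), averaging 6.99 ± 0.053 in RBP2-/- and 7.03 ± 0.65 in wild type (SD, n = 2 each). The late members had the narrowest intervals, with 0.041 for Fosl1 (-0.52 to 0.60) and 0.079 for Fosl2 (-0.42 to 0.58). Jund had 0.26 (-0.38 to 0.89) on its bright probe set and -0.59 (-1.51 to 0.32) on its dim one. Both RBP2-/- arrays lay above both wild type arrays for 1 of 12 probe sets, the dimmer one of Fosl2, and below for 2, the dimmer ones of Fosl1 and Jund. Over all kept probe sets these shares were 14.6% and 14.9%, and each of the 3 genes had a brighter probe set that overlapped.

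**Figure D4:**
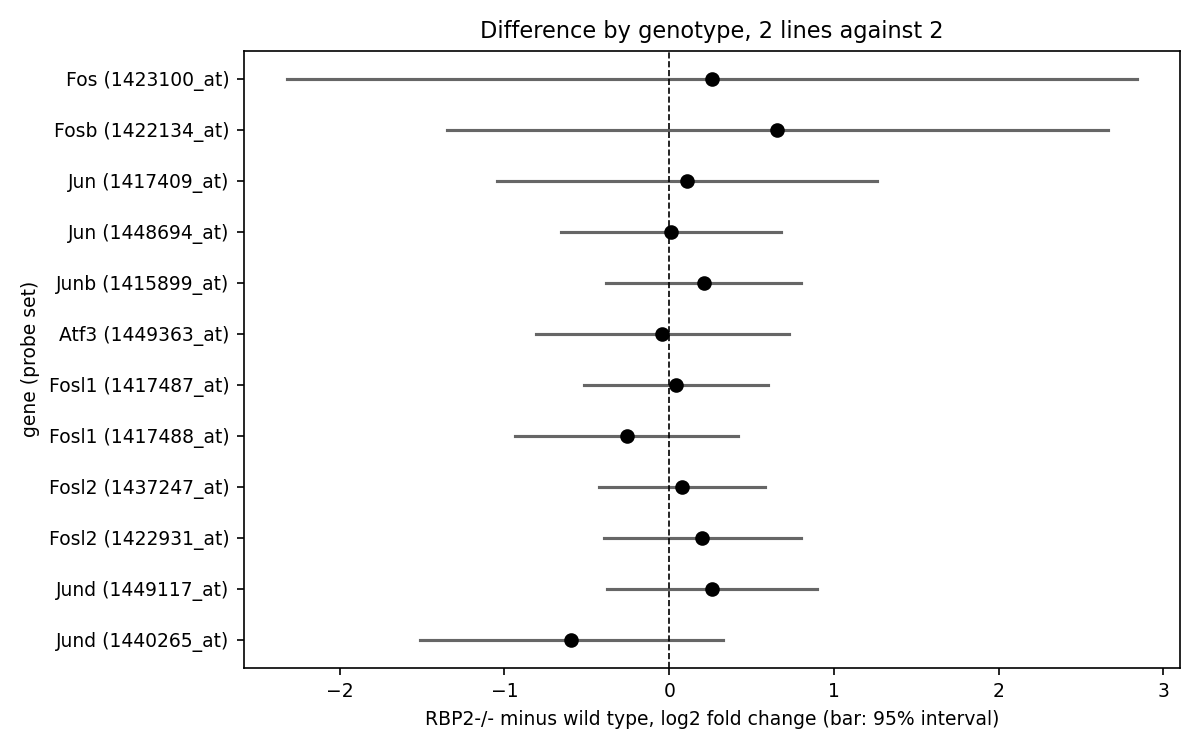
Log2 fold change of RBP2-/- over wild type for the 12 probe sets (points) with 95% intervals from limma (bars, 2 lines against 2). All 12 intervals hold 0, and that of Fos, from -2.32 to 2.84, is the widest.

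The other immediate early genes, which respond to serum with the early AP-1 members, differed less evenly by line number. Of 19 measured, 10 had both lines numbered 2 above both lines numbered 1 and 4 had them below, with a median line difference of 0.16, against 20.0% above, 22.1% below and a median of -0.014 over all 13097 kept genes. Nr4a1, an orphan nuclear receptor, had 9.89 and 8.40 in RBP2-/- lines 2 and 1 and 9.75 and 8.36 in wild type lines 2 and 1. Nr4a2, its close relative, had 7.72 and 6.59 in RBP2-/- lines 2 and 1 and 7.08 and 5.39 in wild type lines 2 and 1. Both receptors were thus high in the lines numbered 2 of each genotype, as Fos was. Klf4, a zinc finger factor of growth arrest, had a line difference of 1.54 in RBP2-/- and 0.87 in wild type. Egr1, which like Fos is driven by serum response elements, had 11.16 and 10.27 in RBP2-/- lines 2 and 1 and 11.11 and 10.62 in wild type lines 2 and 1, a difference of 0.89 and 0.49. Nr4a3 had 0.48 in RBP2-/- and -1.58 in wild type, and Egr2 had -0.64 and 0.26, so neither followed line number in both genotypes. The Nr4a3 probe set was dim, with a log2 signal of 4.79 in RBP2-/- line 1 and 4.82 in wild type line 2. By genotype 14 of the 19 lay above 0 and 5 below. Over all 13097 kept genes, the background for the lists below as well, 6357 lay above 0 and 6740 below. None of the 19 passed. The limma adjusted p was 1.00 for Nr4a2 (log2 fold change 0.92, standard error 0.56), Egr2 (-0.49, 0.30) and Egr3 (0.48, 0.30).

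Among the other bZIP partners, which pair with AP-1 proteins or compete for their sites, 8 of 20 measured genes lay above by line number and 5 below, against 20.0% and 22.1% of all kept genes, with a median of 0.15. Batf2, a factor that binds Jun proteins and was read by a dim probe set, had line differences of 1.78 in RBP2-/- and 1.53 in wild type, Cebpa, a factor of adipocyte and myeloid differentiation, 1.00 and 1.05, and Maf 1.38 and 0.45. Mafk, a small Maf protein with no activating domain, lay lower in lines numbered 2, at -0.76 in RBP2-/- and -0.53 in wild type. By genotype 7 lay above 0 and 13 below, none passed, and the smallest p belonged to Jdp2, a repressor that binds Jun, with a log2 fold change of -0.38 (standard error 0.22), and to Atf5 with -0.36 (0.22).

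Kinases and serum response factors upstream of AP-1 had 4 of 15 measured genes above and 5 below by line number, near the 20.0% and 22.1% of all kept genes, with a median of 0.042. Map2k6, a kinase of p38, had line differences of 1.53 in RBP2-/- and 0.73 in wild type. Its probe set was dim, with a log2 signal of 4.24 in RBP2-/- line 1. Map2k2, a kinase of ERK, had 0.22 in RBP2-/- and 1.24 in wild type. Elk1, a partner of serum response factor on the Fos promoter, had -0.43 and -0.63, and its relative Elk4 had 0.79 and 0.022. By genotype 7 lay above 0 and 8 below and none passed, and Map2k3, another kinase of p38, differed by 0.49 on the log2 scale (standard error 0.22).

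The brakes on AP-1, which are phosphatases, RNA-binding proteins, ubiquitin ligase parts and repressors, had 2 of 13 measured genes above and 6 below, with a median line difference of -0.19. Over all kept genes 20.0% lay above and 22.1% below. Dusp5 and Dusp4, phosphatases that switch off ERK in the nucleus, lay lower in the lines numbered 2. Dusp5 had line differences of -1.59 in RBP2-/- and -1.54 in wild type, and Dusp4 had -1.04 and -0.64. Crem, whose short form represses cAMP-responsive promoters, had -0.60 and -0.58, while Trib1 had 0.15 and 1.82. Trib1 was dim, with a log2 signal of 4.02 in wild type line 1, the array that stood apart. By genotype 9 lay above 0 and 4 below, and none passed. The genes with the smallest p were Jdp2, given above, Zfp36l2, an RNA-binding protein, at -0.42 (standard error 0.25), its relative Zfp36l1 at 0.32 (0.19), and Fbxw7, part of a ubiquitin ligase of Jun, at 0.53 (0.32). Trib1 had a larger estimate with a wider error, at 0.91 (0.57).

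Of the AP-1 target genes, 4 of 20 measured lay above by line number and 4 below, which is near the 20.0% and 22.1% of all kept genes, with a median of -0.11. The protease Mmp3 had line differences of 0.37 in RBP2-/- and 1.02 in wild type, and the plasminogen activator Plau had 0.14 and 1.42. Plau was dim, with a log2 signal of 3.94 in wild type line 1, the array that stood apart. Mt2, a metallothionein, had 1.65 and 0.081, and Vegfd, also called c-fos induced growth factor, had 0.61 and 1.24. Plaur, the receptor of Plau, had -0.34 and -0.37. By genotype 13 lay above 0 and 7 below. None passed, and the smallest p belonged to Ptgs2, the inducible cyclooxygenase, at 0.54 on the log2 scale (standard error 0.20, limma adjusted p = 1.00). Ptgs2 was the only gene of the 5 related lists with an unadjusted p under 0.05, which 2.6% of all kept genes had. Ccl2, a chemokine, had -0.41 (0.35), and Krt18, a keratin, had 0.38 (0.32).

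**Figure D5:**
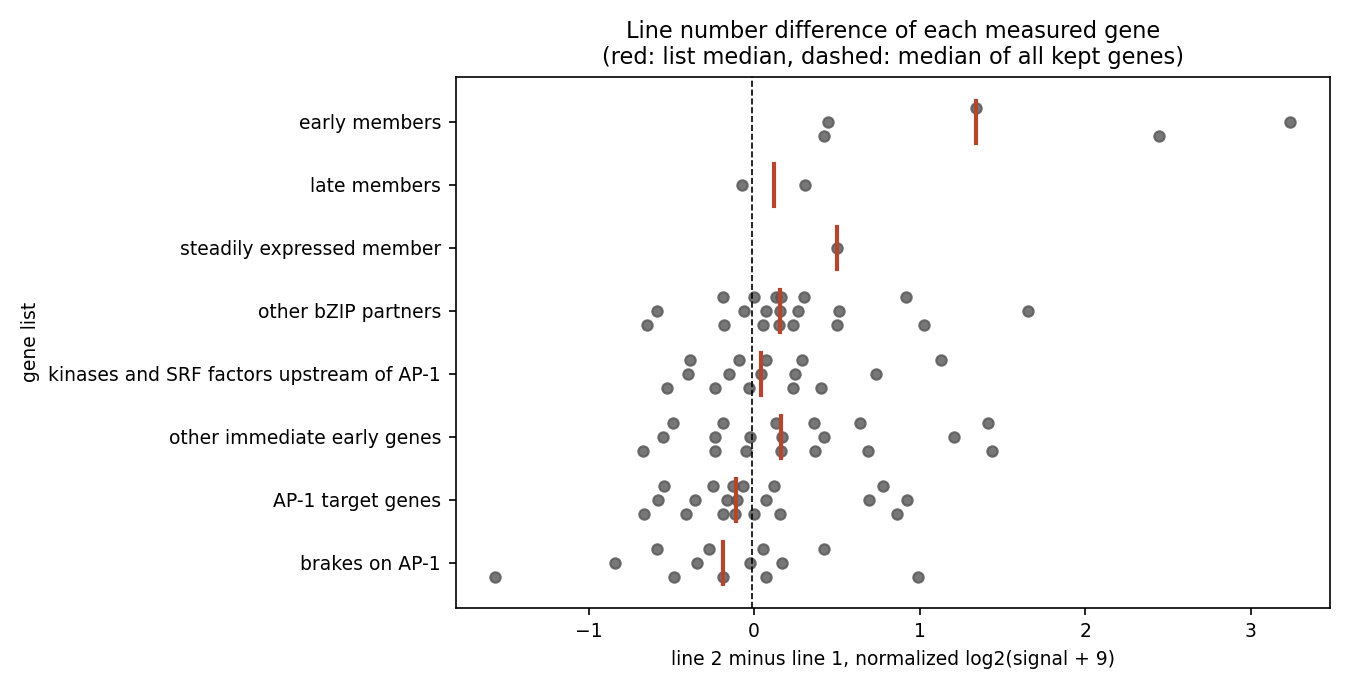
Line 2 minus line 1 in normalized log2(signal + 9), averaged over both genotypes, for each measured gene of the 3 member classes and 5 related lists, with list medians in red and the median of all kept genes dashed at -0.014. The early members reach 3.24, and the highest gene of the 5 related lists is Batf2 at 1.65.

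Outside the family, the genes whose profile over the 4 arrays was nearest to that of Fos were Tgfbi, Gas1, Slc14a1, Wdr83 and Slc20a2, by Euclidean distance between mean-centred log2 values of brightest probe sets. Tgfbi, a matrix protein induced by TGF-beta, had 9.51 and 6.93 in RBP2-/- lines 2 and 1 and 8.80 and 7.02 in wild type lines 2 and 1, at a distance of 1.08. Gas1, a growth-arrest-specific membrane protein, had 10.12 and 7.11 in RBP2-/- lines 2 and 1 and 9.87 and 8.06 in wild type lines 2 and 1, at a distance of 1.10. None of the genes outside the family came within 0.5 of Fos, which only restates its rank by line difference. This distance cannot be smaller than the gap in line difference, and Mfap4, the highest gene outside the family, had 2.44 against 3.24. For Fosl1, 5994 genes outside the family lay within 0.5, so its flat profile is shared widely. The nearest to Fosl1 were Ubd, Akap1, Creb3, Cox17 and 2410022M11Rik at 0.026 to 0.037.

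Other quantities also differed by line number and stand beside the early-gene result. Pdgfra, the PDGF receptor that marks fibroblasts, had line differences of 1.37 in RBP2-/- and 3.21 in wild type, and 5 of 11 fibroblast markers lay above and 1 below, against 20.0% and 22.1% of all kept genes. Of the 5 measured leukocyte markers 0 lay above and 4 below, against the same shares. The leukocyte list summed to 316 and 326 in RBP2-/- lines 2 and 1 and 361 and 508 in wild type lines 2 and 1. Skeletal muscle markers summed to 392 and 1304 in RBP2-/- lines 2 and 1 and 446 and 819 in wild type lines 2 and 1, a difference carried by Acta1, at -1.72 over both genotypes. Of the other measured muscle markers Myod1 had 0.36, Des 0.21 and Ckm -0.032, and the list median was 0.090. None of the markers on the array was at 0 on all arrays. The part of these differences, of array brightness and of serial order in the early-gene values was not tested, and in bulk RNA more cells with a transcript and more RNA per cell cannot be told apart.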

How the data were processed

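RNA of 4 fibroblast lines was hybridized to Affymetrix 1-colour arrays, per the labels. The deposited table gives 1 linear intensity per probe set and array, while the summary, background correction and detection calls behind it are not stated in the labels. Of 45101 probe sets, 64 controls were left out. The rest were quantile normalized, 9 was added, log2 was taken and the upper 60% by mean were kept, or 27022, which held all 12 AP-1 probe sets. The genotypes were compared with limma 3.58.1 in R 4.3.3 (lmFit, eBayes with a mean-dependent prior), two-sided, with Benjamini-Hochberg adjustment over all kept probe sets. The procedure was also run on simulated data. The planted genotype differences were larger than any member estimate here, and line numbers differed in overall brightness only. That run therefore does not bear on differences of the size given here.

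A platform annotation gave 1 symbol for 34945 probe sets, several for 932 and none for 9160. Each gene is represented by its brightest kept probe set. All member probe sets are given. From each related list, up to 4 genes with the smallest genotype p and up to 4 with the largest absolute line difference are named, and the 5 genes nearest to Fos and to Fosl1. Upstream sequences are from RefSeq. Precision is limited by the number of arrays. Members, lists and tests were chosen with earlier results of these data known. Alternatives changed the pseudocount, filter, scaling, probe sets, variance prior, threshold, block and arrays.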

Additional observations from a re-analysis of the deposited data

How the results depend on the processing

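With 2 lines per genotype and no detection calls, small differences of single members could not be resolved. The count of AP-1 probe sets past the genotype threshold was 0 in each of the 14 alternatives. Over all probe sets the count of 1 became 0 without the filter, without scaling, with probe sets averaged per gene and without the mean-dependent variance, and 2 with median-centred arrays. It ranged from 0 to 81 with an array left out, being 81 without wild type line 2, 2 without wild type line 1 and 0 without RBP2-/- line 2. With the replicate number as a block it was 49, of which 0 were AP-1 probe sets. The numbers were not taken as pairs, since the labels state no pairing and there are only 2 numbers, although deviations of same-numbered lines correlated at 0.113 across probe sets. The cause of these changes was not tested.

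Genotype estimates of members, none of which passed, changed sign as follows. Without wild type line 1, Fos had -1.26, Fosb -0.53, Jun -0.66, Junb -0.021, Fosl2 -0.029 and Jund -0.19. Without RBP2-/- line 2, Fos had -1.49, Fosb -0.62, Jun -0.47, Fosl1 -0.045 and Fosl2 -0.13. Without wild type line 2, Atf3 had 0.41 and Fosl1 -0.12. Atf3 had 0.34 without scaling and 0.14 with median-centred arrays. With probe sets averaged per gene, Fosl1 had -0.11 and Jund -0.17. With an array left out, the genotype estimates ranged from -1.49 to 1.95 for Fos, -0.62 to 1.92 for Fosb, -0.66 to 0.87 for Jun, -0.021 to 0.44 for Junb, -0.51 to 0.41 for Atf3, -0.12 to 0.20 for Fosl1, -0.13 to 0.28 for Fosl2 and -0.19 to 0.71 for Jund. The smallest adjusted p of any member in any of these settings was 0.286, for Fosb. By line number, 12 AP-1 probe sets instead of 7 lay above without scaling, and 7 to 9 with an array left out. The share over all kept probe sets was not counted in these settings, so these counts have no background. Leaving out an array leaves a single array under its line number, which makes separation easier. The line difference of early minus late members stayed between 1.26 and 1.65 over 11 alternatives, and that of Fos between 3.07 and 4.01. Fosb ranged from 1.99 to 3.12, Jun from 0.89 to 2.16, Junb from 0.33 to 1.27 and Atf3 from 0.15 to 1.21. Fosl1 ranged from -0.21 to 0.78, Fosl2 from 0.10 to 1.15 and Jund from 0.17 to 1.24. The top of each member's range came without scaling, and the lowest Jun value with probe sets averaged per gene.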
